A study of Homo sapiens with 10 samples.

Results

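The alpha and beta tubulins were the 10 genes of the count table whose symbol was TUBA1A, TUBA1B, TUBA1C, TUBA4A, TUBB, TUBB2A, TUBB2B, TUBB3, TUBB4B or TUBB6, out of 28380 genes in all. They were chosen by name because tubulin is a reported target of isothiocyanates and controls its own mRNA, and the rule uses no measured value, although earlier results of these data were known when it was written. RPE-1 is an established human retinal pigment epithelial line immortalized with telomerase, and all libraries came from this 1 line. For 5 replicates the cells received 25 µM sulforaphane (SFN), the isothiocyanate of broccoli, and for 5 replicates the vehicle DMSO, each for 4 h and with 50000 cells per replicate. RNA was sequenced with QuantSeq, a kit that counts tags near the 3′ end of transcripts. The study describes its replicates in general as independent, but whether the RNA replicates were separate cultures is not given in the sources used here, so the p-values measure only the spread between these libraries, which may be technical.

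Microtubules are polymers of alpha and beta tubulin heterodimers, and vertebrate cells make each subunit from several genes, the isotypes, whose products differ mainly at the carboxy terminus. When unpolymerized tubulin accumulates, cells degrade tubulin mRNAs while they are being translated. TTC5 recognizes the first residues of the nascent chain and, with SCAPER, recruits the CCR4-NOT deadenylase to the mRNA.

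After SFN, 2 of the 10 tubulin mRNAs fell, TUBB2A and TUBB4B, where 13.9% of all genes tested did. TUBB2A, a minor beta tubulin, fell to 0.571 of its DMSO level, and TUBB4B, a beta tubulin made in many tissues, fell to 0.657. TUBB6, a beta tubulin also made outside the nervous system, was below its DMSO range in every SFN library but missed the threshold. TUBA4A, the member with the largest log2 fold change (-0.97), missed it too. Its value was -0.39 without DMSO replicate 1, when TUBB2A had the largest (-0.92). TUBB, the beta tubulin found in most dividing cells, and the abundant alpha tubulins TUBA1A, TUBA1B and TUBA1C did not pass the test. No member rose in the comparison of all 10 libraries, and 1, TUBA1B, did so when DMSO replicate 1 was left out.

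The DMSO libraries held 15689294 to 20666692 counts and the SFN libraries 12375860 to 17308706. DMSO replicate 1 stood apart from the other libraries. Its TMM scaling factor was 0.886, against 1.06 to 1.08 in the other DMSO libraries, and its mean Spearman correlation across genes with its own group was 0.935, against 0.979 to 0.982. The fold changes and counts of the tubulins and of the gene lists are therefore given with and without it. Of 8 target genes of NRF2, the oxidative stress regulator that SFN is widely used to activate, 3 rose, where 9.07% of all genes did, led by SLC7A11 with a log2 fold change of 1.61, and 5 rose without DMSO replicate 1, where 22.5% did. RPE65, RLBP1, TYRP1 and TTR, which define differentiated retinal pigment epithelium, had at most 4 counts in any library, while 6 of the 11 markers listed had enough counts for a test. Of these, the regulators MITF and OTX2 fell, from a mean of 50.8 to 23.4 and of 14.0 to 9.01 CPM (counts scaled by TMM to a library of 1000000). BEST1, a channel of differentiated pigment epithelium, was at 18.8 CPM in DMSO and 42.4 in SFN (adjusted p = 0.163 by edgeR), and PMEL, RDH5 and MERTK lay between 0.556 and 2.36 CPM in both groups and did not pass. Of 11 neuron markers 3 had enough counts for a test, SYT1, MAP2 and SNAP25, and 0 passed it, also at an unadjusted p under 0.05. MAP2 stood at a mean of 58.4 CPM in DMSO and 55.9 in SFN, SYT1 at 24.6 and 25.1, and SNAP25 at 0.869 and 0.775. Of the neuron markers not tested, RBFOX3, NEFM and SYN1 had at most 2 counts in any library, ELAVL3 at most 6 and GAP43 at most 13.

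The start of the coding sequence is shown because the nascent peptide it encodes is what TTC5 reads. The first 12 coding bases were read from GENCODE 44 on GRCh38, and the capitals mark the codons after the start codon.
TUBA1A, TUBA1B and TUBA1C: atgCGTGAGTGC
TUBA4A: atgCGTGAATGC
TUBB and TUBB4B: atgAGGGAAATC
TUBB2A: atgCGCGAGATC
TUBB2B: atgCGTGAGATC
TUBB3 and TUBB6: atgAGGGAGATC

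In the 4 alpha genes an intron of 1575 to 4280 bases follows the start codon, whereas in the 6 beta genes the 12 bases lie in a single exon. They lie at chr6:3157452-3157463 on the minus strand in TUBB2A, at chr9:137241361-137241372 on the plus strand in TUBB4B and at chr6:30720507-30720518 on the plus strand in TUBB. TUBB and TUBB4B had the same 12 bases and log2 fold changes of -0.03 and -0.61. Over the whole coding sequence, alpha genes were 84.4% to 97.2% identical to each other and beta genes 81.0% to 98.1%, and an alpha and a beta gene shared 54.9% to 57.6%.

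The 250 bases upstream of the transcription start of TUBB2A and TUBB4B are shown because these are the members whose mRNA fell. They come from the RefSeq promoter table on GRCh38.p14, chr6:3157545-3157794 on the minus strand for TUBB2A and chr9:137241037-137241286 on the plus strand for TUBB4B, and are written along the gene. Capitals mark the TATA box letters TATAAA in TUBB2A and the CCAAT box letters CCAAT in TUBB4B.
TUBB2A: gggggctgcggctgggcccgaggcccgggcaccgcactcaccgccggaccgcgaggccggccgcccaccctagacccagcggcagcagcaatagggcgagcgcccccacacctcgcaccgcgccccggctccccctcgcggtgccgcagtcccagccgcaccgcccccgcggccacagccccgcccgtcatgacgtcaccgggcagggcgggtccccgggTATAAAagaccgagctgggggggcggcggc
TUBB4B: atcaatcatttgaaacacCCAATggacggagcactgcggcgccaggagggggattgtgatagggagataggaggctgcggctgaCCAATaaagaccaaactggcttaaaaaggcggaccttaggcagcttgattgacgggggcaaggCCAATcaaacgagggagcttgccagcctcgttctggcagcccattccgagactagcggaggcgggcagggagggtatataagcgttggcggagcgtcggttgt

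All 10 genes had a RefSeq promoter, 15 promoters in all of 300 bases each, and 6 motifs were searched on both strands. TATAAA was found in the promoter of TUBB2A alone among the members and in 11.5% of 35116 promoters. Variants of these letters, such as tatataa near the end of the TUBB4B sequence above, were not searched. CCAAT was found in 9 promoters of 7 member genes, with 3 copies in TUBB4B, and in 34.6% of all promoters. A TUBA1C site shared by overlapping alternative promoters is counted in each of them. The heat shock element letters GAANNTTC were found in 3 member promoters, of TUBA1C and TUBB, and in 6.77% of all promoters. In TUBA1C they were a single site in overlapping alternative promoters, and in TUBB they began 6 bases past the transcription start. The other orientation of the same repeat, TTCNNGAA, was found in 0 member promoters and 7.74% of all. TGACNNNGC, the antioxidant response element bound by NRF2, was found in 2 member promoters, of TUBB2B and TUBB3, and in 13.3% of all promoters. In TUBB2B it began 32 bases past the transcription start. TGATGNAA, the element bound by ATF4, was found in 0 member promoters and 3.62% of all. A match is a match of letters only, and 0 matches says only that the letters were not in this window.

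Tubulin mRNAs together made up 0.604% to 1.02% of the library in DMSO and 0.548% to 0.789% in SFN. Between genes, levels are compared in CPM per kb of the canonical transcript. In DMSO the order per kb was TUBA1B (1310 CPM per kb), TUBB (669), TUBB4B (545), TUBA1A (481), TUBA1C (392), TUBB6 (248), TUBA4A (25.7), TUBB2A (18.5), TUBB3 (2.49) and TUBB2B (0.757). Neighbours in this order overlapped between libraries from TUBB down to TUBB6 and again for TUBA4A and TUBB2A, so their order does not exceed the spread between libraries. Within the same DMSO library, TUBA1C was above TUBB6 in 5 of 5. TUBB over TUBB4B, TUBB4B over TUBA1A and TUBA1A over TUBA1C held in 4 of 5 each, and TUBA4A over TUBB2A in 2 of 5. In the SFN libraries, TUBA1A (363 CPM per kb) stood above TUBB4B (358) and the remaining order was the same, with TUBA1B at 1440 and TUBB at 655. TUBA1A, TUBB4B and TUBA1C overlapped with their neighbours in SFN, as did TUBA4A and TUBB2A. A 3′ tag count does not grow with transcript length, so the order was also taken without the division. By its mean TUBA1C then stood above TUBB4B and TUBA1A in both groups. In DMSO TUBA1C and TUBB4B overlapped, with TUBA1C above TUBB4B within 4 of 5 libraries. TUBA1B and TUBB also overlapped, with TUBA1B above TUBB within 3 of 5 DMSO libraries and 5 of 5 SFN libraries.

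**Figure D1:**
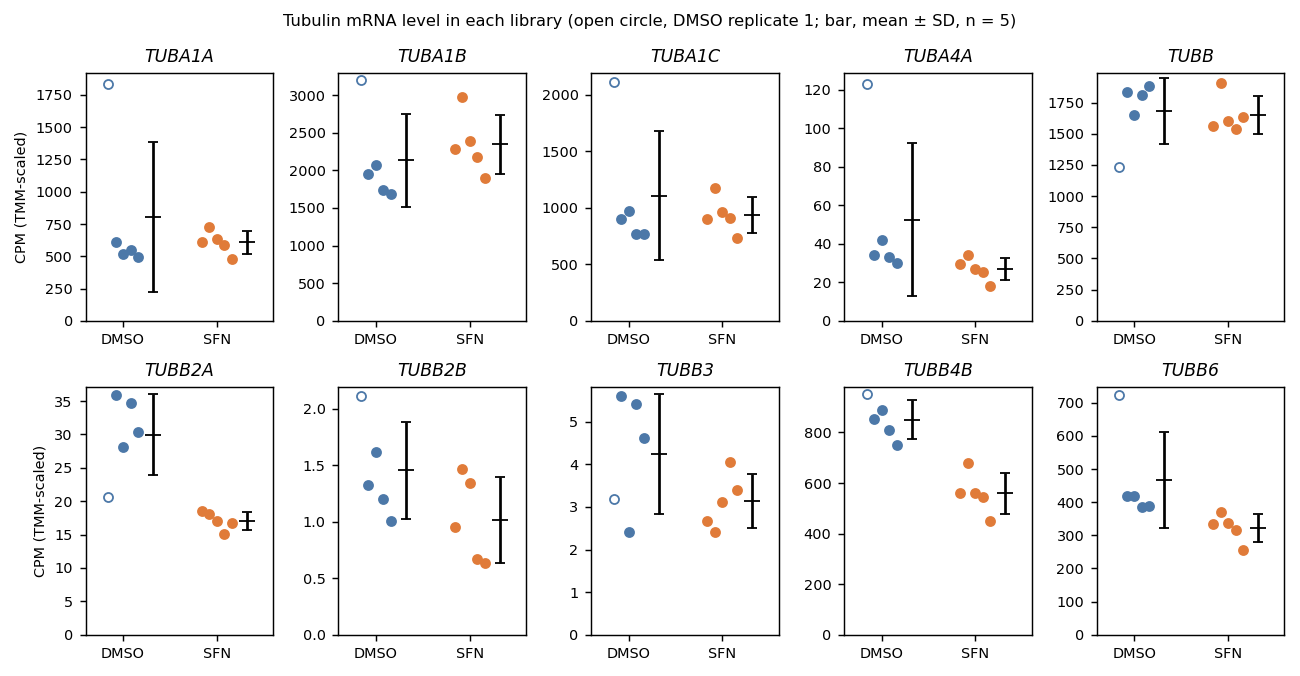
Level of each tubulin mRNA in every library, in TMM-scaled CPM on a linear axis from 0, for DMSO and SFN; each point is a library, the open circle is DMSO replicate 1 and the bar is the mean ± SD (n = 5). The 5 SFN libraries lie below all DMSO libraries for TUBB2A, TUBB4B and TUBB6, and DMSO replicate 1 lies above the other DMSO libraries for 7 genes.

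TUBB2A (ENSG00000137267, chr6:3153497-3157544, minus strand) is a near copy of TUBB2B, with a coding sequence 98.1% identical. In DMSO replicates 1 to 5 it was measured at 20.7, 36.0, 28.1, 34.6 and 30.4 CPM, and in SFN replicates 1 to 5 at 18.6, 18.1, 17.0, 15.1 and 16.7 CPM. The groups did not overlap, and DMSO replicate 1 was the lowest DMSO library. The mean fell from 30.0 ± 6.08 to 17.1 ± 1.36 CPM (SD, n = 5), a log2 fold change of -0.81 (SE 0.15, 95% confidence interval -1.14 to -0.48, Benjamini-Hochberg adjusted p = 0.0022 by the quasi-likelihood test of edgeR, used throughout). It was -0.92 without DMSO replicate 1 (SE 0.10, adjusted p = 9.76e-06 by edgeR). Of the 50-base words in the last 400 bases of the TUBB2A transcript, 42.7% also occur in TUBB2B, 30.77% in TUBB3 and 17.95% in TUBB4B. TUBB4B was far more abundant, at a mean of 851 CPM in DMSO and 560 in SFN. Whether reads of TUBB4B entered the TUBB2A count, and so its fall, was not tested. How reads that match several genes were counted is not given in the sources used here, and TUBB2B itself had 9 to 34 counts per library.

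TUBB4B (ENSG00000188229, chr9:137241287-137243707, plus strand) was measured at 954, 853, 890, 809 and 750 CPM in DMSO replicates 1 to 5. In SFN replicates 1 to 5 it was measured at 560, 681, 560, 545 and 451 CPM. Every SFN library was below every DMSO library, and SFN replicate 2 was the closest to them. The mean fell from 851 ± 77.8 to 560 ± 81.7 CPM (SD, n = 5), a log2 fold change of -0.61 (SE 0.13, 95% confidence interval -0.88 to -0.33, adjusted p = 0.00451 by edgeR). It was -0.57 without DMSO replicate 1 (SE 0.10, adjusted p = 6.14e-04 by edgeR). In TUBB4B 29.3% of the words at the transcript end occur in other genes, among them TUBB2A, so a part of its count is uncertain too.

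TUBB6 (ENSG00000176014, chr18:12307669-12344320, plus strand) was measured at 724, 418, 418, 385 and 387 CPM in DMSO replicates 1 to 5 and at 335, 369, 338, 316 and 255 CPM in SFN replicates 1 to 5. The groups did not overlap, and DMSO replicate 1 was far above the other DMSO libraries. The mean was 466 ± 145 CPM in DMSO and 323 ± 42.3 in SFN (SD, n = 5), with a log2 fold change of -0.53 (SE 0.19, adjusted p = 0.0598 by edgeR). The difference was smaller but past the threshold without DMSO replicate 1, with a log2 fold change of -0.32 (SE 0.10, adjusted p = 0.015 by edgeR). No word at the end of its transcript occurs in another gene.

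TUBB (ENSG00000196230, chr6:30717435-30725538, plus strand) was measured at 1233, 1834, 1646, 1811 and 1886 CPM in DMSO replicates 1 to 5. In SFN replicates 1 to 5 it was measured at 1561, 1908, 1604, 1534 and 1634 CPM. The groups overlapped, with DMSO replicate 1 lowest and SFN replicate 2 highest. The log2 fold change was -0.03 (SE 0.13, 95% confidence interval -0.32 to 0.26, adjusted p = 0.908 by edgeR), and -0.13 (SE 0.08, adjusted p = 0.218) without DMSO replicate 1. The remaining beta genes were measured at a few CPM. TUBB2B, which is studied mainly in developing neurons, lay between 1.01 and 2.12 CPM in DMSO and between 0.635 and 1.47 in SFN (log2 fold change -0.53, SE 0.31, adjusted p = 0.262 by edgeR, and -0.37 without DMSO replicate 1). TUBB3, the beta isotype used as a neuronal marker, lay between 2.40 and 5.60 CPM in DMSO and between 2.42 and 4.05 in SFN (log2 fold change -0.44, SE 0.25, adjusted p = 0.254 by edgeR, and -0.53 without DMSO replicate 1). These values rest on 28 to 123 counts per library for TUBB3 and 9 to 34 for TUBB2B. The end of the TUBB3 transcript also belongs to a readthrough gene that is not used here.

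For all 4 alpha tubulins the groups overlapped. TUBA1B (ENSG00000123416, chr12:49127782-49131397, minus strand), the most abundant of them, was measured at 3205, 1944, 2074, 1744 and 1686 CPM in DMSO replicates 1 to 5 and at 2288, 2968, 2388, 2181 and 1892 CPM in SFN replicates 1 to 5. DMSO replicate 1 was the highest library of all, and the overlap remained without it. The log2 fold change was 0.14 (SE 0.19, 95% confidence interval -0.28 to 0.55, adjusted p = 0.666 by edgeR). TUBA1B rose when DMSO replicate 1 was left out, with a log2 fold change of 0.33 (SE 0.12, adjusted p = 0.0334 by edgeR). Of the words at its transcript end 35.6% occur in other genes, mainly the pseudogene TUBAP2 and the neighbours TUBA1C and TUBA1A.

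TUBA1A (ENSG00000167552, chr12:49184686-49189080, minus strand), the main alpha tubulin of developing neurons, was measured at 1838, 614, 521, 552 and 497 CPM in DMSO replicates 1 to 5 and at 610, 729, 633, 585 and 477 CPM in SFN replicates 1 to 5. Its log2 fold change was -0.41 (SE 0.34, adjusted p = 0.455 by edgeR) with all libraries and 0.15 (SE 0.11, adjusted p = 0.287) without DMSO replicate 1, so its sign depended on that library. TUBA1C (ENSG00000167553, chr12:49188736-49274600, plus strand), whose first bases overlap the start of TUBA1A on the other strand, behaved alike, with -0.24 (SE 0.27, adjusted p = 0.588 by edgeR) and 0.13 (SE 0.12, adjusted p = 0.415). In DMSO replicate 1 it was measured at 2111 CPM, against 768 to 974 in the other DMSO libraries and 732 to 1176 in SFN. TUBA4A (ENSG00000127824, chr2:219249710-219277902, minus strand), a minor alpha tubulin in these cells, was measured at 123, 34.3, 42.2, 33.4 and 30.2 CPM in DMSO replicates 1 to 5 and at 29.7, 34.1, 27.2, 25.6 and 18.3 CPM in SFN replicates 1 to 5. Only SFN replicate 2 reached into the DMSO range. Its log2 fold change of -0.97 (SE 0.37) was larger than that of TUBB2A but less precise (adjusted p = 0.0867 by edgeR), and it was -0.39 (SE 0.15, adjusted p = 0.0519) without DMSO replicate 1.

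Of 13378 genes tested, 3076 passed an adjusted p under 0.05, which is 23%, with 9.07% higher and 13.9% lower in SFN. Of the 10 tubulins, 0 were higher and 2 lower, and at an unadjusted p under 0.05 0 were higher and 4 lower, where 14.6% and 20% of all genes were. DESeq2 also called 0 higher, where it called 1840 over all genes, and limma-voom with sample quality weights called 1, where it called 3874. The 3 members without overlap between the groups were all lower and 0 were higher, against 11.1% and 8.78% of all genes. Leaving out DMSO replicate 1 gave the same counts, 3 and 0, against 19.6% and 16.6%. The median log2 fold change was -0.48 over the members and -0.03 over all genes tested. Without DMSO replicate 1, when 22.5% of all genes were called higher and 23.5% lower, 1 tubulin was higher and 3 were lower, and the median over the members was -0.35. Past the threshold with a log2 fold change beyond 1 were 0 members in either direction, against 2.94% of all genes higher and 5.76% lower. In RNA from a whole culture, fewer cells with a transcript and less of it per cell cannot be told apart.

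**Figure D2:**
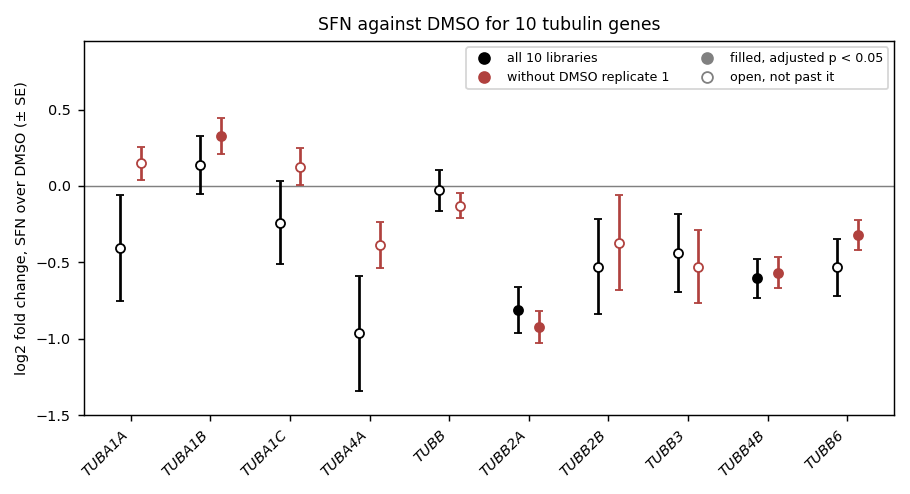
Log2 fold change of SFN over DMSO for each tubulin gene (y axis, points ± SE) with all 10 libraries in black and without DMSO replicate 1 in red; filled points have an adjusted p under 0.05. TUBB2A and TUBB4B are filled in both colours, TUBA1B and TUBB6 in red alone, and TUBA1A and TUBA1C change sign between the colours.

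In the tubulins, DMSO replicate 1 lay above all other DMSO libraries for 7 members, below them for TUBB and TUBB2A and within their range for TUBB3. It was 3.52-fold their mean for TUBA4A, 3.37-fold for TUBA1A and 2.47-fold for TUBA1C, and 0.641-fold for TUBB2A. For TUBB4B it was 1.16-fold, so the decrease of TUBB4B was of similar size with and without it. In DMSO replicate 1, the slope of log2 CPM, centred on all libraries, against log2 transcript length was -0.271, and it was 0.0872 to 0.148 in the other DMSO libraries. In SFN replicates 1 to 5 the slope was -0.0456, -0.183, -0.0574, -0.0355 and 0.109. SFN replicates 1 to 4 thus lay below DMSO replicates 2 to 5. With DMSO replicate 1 left out, slope and treatment therefore went together in most libraries and cannot be told apart there. The part of transcript length in these values was not tested beyond a fit with a length offset in each library, which gave log2 fold changes of -0.93 for TUBB2A (adjusted p = 0.00469 by edgeR) and -0.71 for TUBB4B (adjusted p = 1.76e-04 by edgeR).

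Shares within each subunit family do not depend on how the libraries were scaled. TUBA1B made up 58.9% to 60.7% of alpha tubulin counts in SFN and 44.04% to 57.4% in DMSO, or 55.6% to 57.4% without DMSO replicate 1. The shares of TUBA1C and TUBA4A were lower in every SFN library than in every DMSO library, at 23.5% to 24.6% against 24.9% to 29.0% for TUBA1C and 0.587% to 0.775% against 0.980% to 1.69% for TUBA4A. Relative to its level the change was larger for TUBA4A, from a mean of 1.19% to 0.685%, than for TUBA1C, from 26.5% to 23.9%. Both held with and without DMSO replicate 1. Among beta tubulins, TUBB held 63.0% to 69.2% of counts in SFN and 41.98% to 61.7% in DMSO. TUBB4B held 19.1% to 22.9% in SFN and 24.5% to 32.5% in DMSO. The share of TUBB2A, 0.608% to 0.751% in SFN and 0.704% to 1.14% in DMSO, overlapped between the groups through DMSO replicate 1 alone. A share can move because another isotype does, and no test was made on these values.

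**Figure D3:**
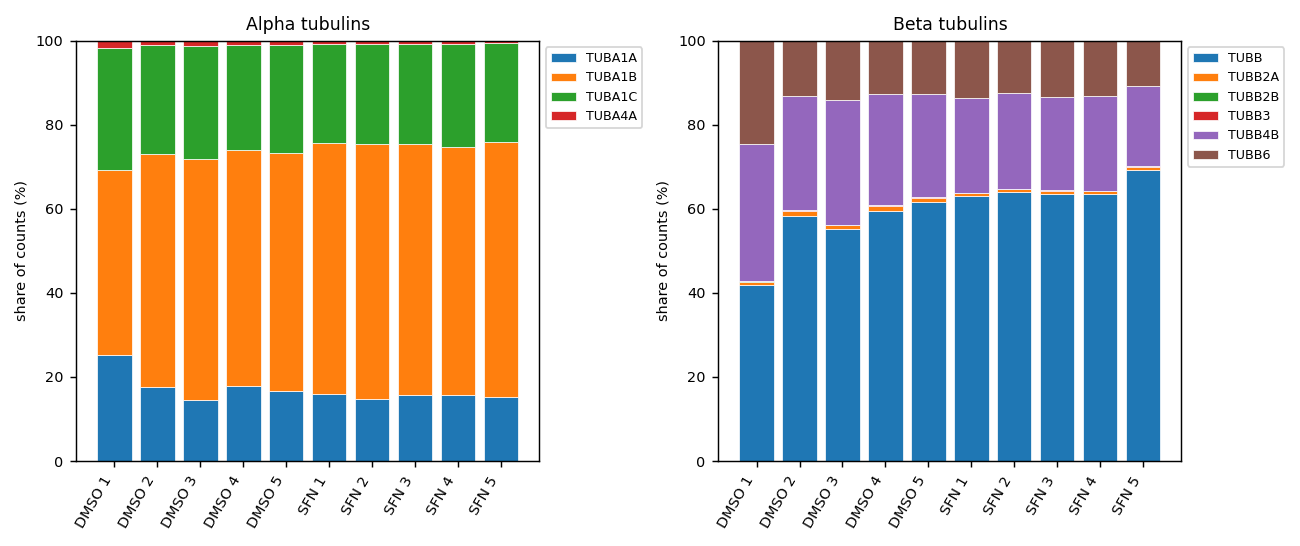
Share of each gene in the summed raw counts of the alpha tubulins (left) and beta tubulins (right), in percent, as stacked bars from 0 to 100 for each of the 10 libraries; TUBB2B and TUBB3 are too small to see. TUBB4B takes 24.5% to 32.5% of beta counts in DMSO and 19.1% to 22.9% in SFN, and DMSO replicate 1 has the largest TUBA1A and TUBB6 shares.

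Summed over the genes of a family, beta tubulins stood at 2936, 3149, 2987, 3046 and 3058 CPM in DMSO replicates 1 to 5 and at 2478, 2980, 2524, 2415 and 2361 CPM in SFN replicates 1 to 5. In this sum 4 of the 5 SFN libraries were below all DMSO libraries, and SFN replicate 2 was above DMSO replicate 1 alone, so without that library the groups did not overlap (2987 to 3149 against 2361 to 2980 CPM). Alpha tubulins stood at 2982 to 7277 CPM in DMSO (median 3496) and at 3118 to 4908 in SFN (median 3830), with overlap also without DMSO replicate 1, when DMSO reached 3611. The alpha genes gave 71.3%, 52.6%, 54.7%, 50.4% and 49.4% of all tubulin counts in DMSO replicates 1 to 5 and 60.7%, 62.2%, 61.4%, 60.5% and 56.9% in SFN replicates 1 to 5. The alpha share was higher in all SFN libraries than in DMSO replicates 2 to 5 but lower than in DMSO replicate 1, so the order of the groups rested on that library. A sum weights TUBA1B and TUBB most.

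The genes whose profile over the 10 libraries was nearest to TUBB2A, by the root mean square difference of centred log2 CPM, were ZNF629 (0.119), ADAMTS1 (0.134) and TMEM201 (0.135). The nearest tubulin to it was TUBB4B (0.303), at rank 868 of all genes tested. For TUBB4B the nearest genes were NUP85 (0.104), BLMH (0.106) and ARHGAP22 (0.113), and the nearest tubulin was TUBB6 (0.196) at rank 210.

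Another 23 genes named as tubulins were in the table, and 15 of them had a mean count under 10. TUBE1, epsilon tubulin, a centriole component that does not build the microtubule lattice, rose in the same libraries. It was measured at 10.8, 10.5, 8.55, 10.3 and 10.8 CPM in DMSO replicates 1 to 5 and at 31.2, 29.4, 36.3, 30.6 and 38.6 CPM in SFN replicates 1 to 5. The groups were far apart (log2 fold change 1.71, SE 0.12, adjusted p = 2.48e-06 by edgeR, and 1.72 without DMSO replicate 1). TUBG1, the main gamma tubulin of microtubule nucleation, had a log2 fold change of 0.13 (adjusted p = 0.547 by edgeR) and 0.04 without DMSO replicate 1. TUBG2, the other gamma tubulin, had a log2 fold change of -0.36 (adjusted p = 0.298 by edgeR). Without DMSO replicate 1, when 23.5% of all genes were called lower, it fell, with a log2 fold change of -0.54 (adjusted p = 0.00749 by edgeR). TUBD1, delta tubulin, had one of 0.03 (adjusted p = 0.964 by edgeR) and 0.36 (adjusted p = 0.135) without that library.

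The genes that make, read and use tubulin were taken from lists fixed by function with earlier results of these data known. Of 12 genes of tubulin mRNA autoregulation, 1 rose and 0 fell, against 9.07% and 13.9% of all genes, and at an unadjusted p under 0.05 2 were higher and 0 lower. Leaving out DMSO replicate 1, 2 rose and 2 fell, TTC5 among those that fell, against 22.5% and 23.5%. The gene that rose with all 10 libraries fitted was CNOT8, a deadenylase subunit of CCR4-NOT (log2 fold change 0.41, adjusted p = 0.0083 by edgeR). TTC5, the reader of the nascent tubulin chain, is named for its role and was measured at 15.8 ± 4.56 CPM in DMSO and 11.8 ± 2.62 in SFN (SD, n = 5). Its log2 fold change was -0.42 (SE 0.23, adjusted p = 0.232 by edgeR), and -0.59 (SE 0.15, adjusted p = 0.00681) without DMSO replicate 1. SCAPER, its partner, had a log2 fold change of -0.24 (adjusted p = 0.216 by edgeR), and -0.18 (adjusted p = 0.207) without DMSO replicate 1.

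Of 15 genes of tubulin folding, which pass new subunits from prefoldin to the tubulin cofactors, 1 rose and 1 fell, again against 9.07% and 13.9% of all genes. PFDN1, a prefoldin subunit, rose (log2 fold change 0.39, adjusted p = 0.048 by edgeR), and TBCC, the cofactor that triggers release of the finished dimer, fell (-0.50, adjusted p = 0.0169). The median of the list was 0.14 and became 0.42 without DMSO replicate 1, when 8 rose and 1 fell against 22.5% and 23.5%. The call of PFDN1 held in 5 of 21 processing alternatives and that of TBCC in 20.

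Of 19 genes of microtubule nucleation tested, 1 rose and 4 fell (9.07% and 13.9% of all genes), with a median of -0.13. TUBGCP5 (-0.90, adjusted p = 0.00775 by edgeR) and TUBGCP3 (-0.45, adjusted p = 0.0123), components of the gamma tubulin ring complex, fell, as did HAUS3 (-0.78, adjusted p = 5.95e-04) and HAUS8 (-0.68, adjusted p = 0.00126) of the augmin complex, which starts branches on existing microtubules. HAUS2, of the same augmin complex, rose (0.34, adjusted p = 0.044 by edgeR). Leaving out DMSO replicate 1, 3 rose and 9 fell (22.5% and 23.5%). The falls of the 4 genes named here held in 21 of 21 alternatives, and the rise of HAUS2 in 6.

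Of 17 genes of tubulin modification tested, 2 rose and 3 fell (9.07% and 13.9% of all genes), with a median of -0.13. TTLL3, which adds glycine to tubulin tails, rose by 1.71 on the log2 scale (adjusted p = 1.00e-05 by edgeR), and SIRT2, a tubulin deacetylase, by 0.50 (adjusted p = 0.0159). TTLL4 and TTLL7, which add glutamate to the tails, fell by 1.19 (adjusted p = 2.92e-04 by edgeR) and 0.40 (adjusted p = 0.0405), and AGBL3, a carboxypeptidase of the tails, fell by 1.03 (adjusted p = 0.0362). With DMSO replicate 1 left out 2 rose and 6 fell (22.5% and 23.5%). The calls of TTLL3 and TTLL4 held in 21 of 21 alternatives, that of SIRT2 in 18 of 21, that of TTLL7 in 8 of 21 and that of AGBL3 in 11 of 20. TTLL3 and TTLL4 had larger log2 fold changes than any alpha or beta tubulin.

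Of 29 genes of microtubule binding and dynamics tested, 0 rose and 3 fell, no more than the 9.07% and 13.9% of all genes. At an unadjusted p under 0.05, 1 was higher and 5 lower (14.6% and 20% of all genes), and the median was -0.14. MAP1A (-0.98, adjusted p = 2.41e-04 by edgeR) and MAP1S (-0.88, adjusted p = 0.0014), which bind along microtubules, and FIGN, which severs them (-0.90, adjusted p = 0.00122), made up the 3, and their calls held in 21 of 21 alternatives. Leaving out DMSO replicate 1, 2 rose and 7 fell (22.5% and 23.5%). Of 20 genes of actin and intermediate filaments, the other parts of the cytoskeleton, 1 rose and 0 fell (9.07% and 13.9% of all genes), and 3 and 0 at an unadjusted p under 0.05. Their median of 0.19 lay above that of all genes, with 16 of 20 above 0, and CFL1, an actin-severing protein, rose (0.47, adjusted p = 0.0344 by edgeR), a call that held in 6 of 21 alternatives. Leaving out DMSO replicate 1, 6 rose and 0 fell (22.5% and 23.5%), with a median of 0.24 and 14 of 20 above 0. The median of tubulin folding was then higher, at 0.42. The median of the alpha and beta tubulins, -0.48, was below those of the other lists.

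**Figure D4:**
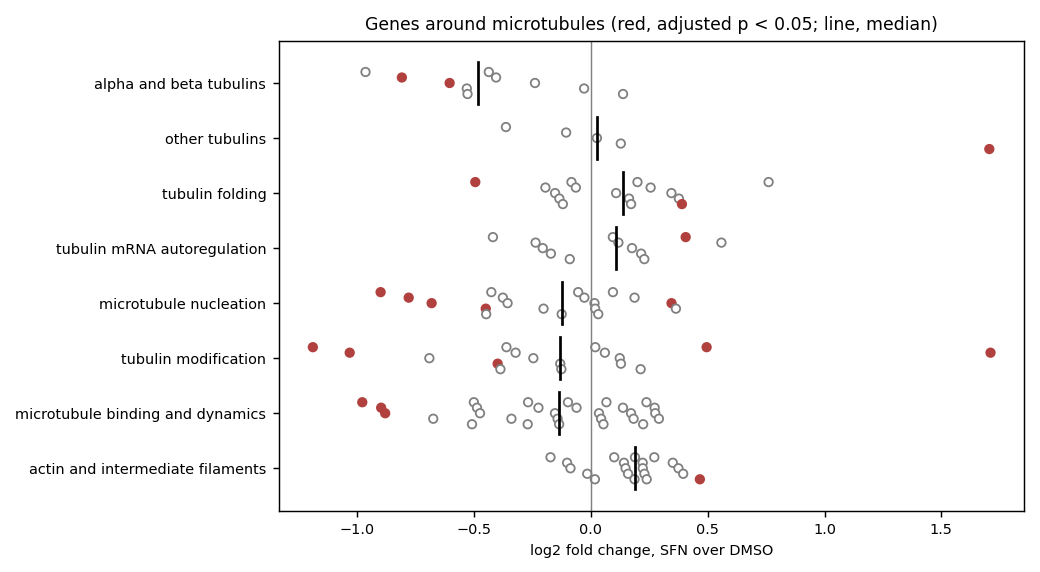
Log2 fold change of SFN over DMSO (x axis) of every gene tested in the tubulin family and in 7 further lists (rows), with genes past an adjusted p of 0.05 in red and the median of each list as a black line. The alpha and beta tubulins have the lowest median, -0.48, and actin and intermediate filaments the highest, 0.19, while the largest increases are TUBE1 and TTLL3, both at 1.71.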

How the data were processed

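QuantSeq libraries were made from 5 SFN and 5 DMSO replicates of RPE-1 cells. Alignment and counting ran in the Bluebee pipeline, and what the authors deposited are unnormalized read counts for each Ensembl gene. The submitters' processing notes name FastQC, STAR, featureCounts, edgeR and the build hg38 (GRCh38). The use of strand, of molecular identifiers and of reads that match several genes is not given in the sources used here. A 3′ count can assign reads of near-identical isotypes to the wrong gene. The study's own model, limma with dream weights and repeated measures that are not defined, was not run here.

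Samples were grouped by the treatment in the labels. Genes were filtered with filterByExpr, which left 13378, scaled by TMM and compared with glmQLFit and glmQLFTest in edgeR 4.0.16 with Benjamini-Hochberg adjustment over all genes tested (R 4.3.3). Standard errors were derived from the log2 fold change and its F statistic. DESeq2 1.42.0 and limma 3.58.1 gave alternatives, with other scalings, filters, a replicate block, a length offset and each library left out in turn. The members, the gene lists and these alternatives were chosen with earlier results of these data known. The text names the 10 members and, of each list, the genes past the threshold, at most 5 in each direction, plus TTC5, SCAPER, TUBG1, TUBG2 and TUBD1 for their roles. Counts of any 2 replicates of a group differed by a chi-square of 3.50 to 243 per degree of freedom, so all were kept as separate libraries. The largest values, 232 to 243, were those of DMSO replicate 1 against the other DMSO libraries. Such values cannot show whether the replicates were separate cultures. On counts simulated for 5 SFN against 5 DMSO libraries with 13485 genes tested, the edgeR test recovered 94.9% of 2-fold and 56.6% of 1.5-fold changes, and 6.29% of its calls were false. The simulated counts had the same spread beyond counting noise for every gene and no library standing apart like DMSO replicate 1. These rates need not hold for the real libraries. GENCODE 44 held 28145 of the 28380 gene identifiers and gave positions and transcripts, with levels per kb taken from the canonical transcript, and RefSeq gave promoters. The 46 rows without a symbol name no gene here but kept their identifiers.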

Additional observations from a re-analysis of the deposited data

Results flagged for a closer look

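Of 34 groups of 5 libraries examined for the values given here, 11 held a library whose gap to its nearest neighbour, divided by the range of the group, was above Dixon's critical value of 0.71. Chance flags about 1 in 20 groups, or 2 of these, and 8 of the 11 concern DMSO replicate 1, so they are not independent. In DMSO replicate 1 the ratio was 0.913 for TUBA1A, 0.745 for TUBA1B, 0.847 for TUBA1C, 0.871 for TUBA4A and 0.902 for TUBB6, where the library was in each case the highest of its group. The same library stood apart in the summed level of the alpha tubulins (0.854), in that of all 10 tubulins (0.855) and in the alpha share of tubulin counts (0.755). SFN replicate 2 stood apart for TUBB (0.734) and for the summed beta tubulins (0.736), where it was the highest SFN library, and it was also the library with the smallest total count, 12375860. For TUBE1 DMSO replicate 3 was the lowest (0.767), at 8.55 CPM against 10.3 to 10.8 in the other DMSO libraries. TUBB2A and TUBB4B, the members that fell, had no such library in either group, and neither did TUBB2B and TUBB3, which did not pass the test.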

How the results depend on the processing

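TUBB2A and TUBB4B stayed lower and past the threshold in 21 of 21 alternatives, with adjusted p from 6.07e-08 to 0.0133 and from 7.77e-07 to 0.0152. TUBB6 passed it in 6 of 21 (adjusted p 0.0011 to 0.123), TUBA4A in 5, TUBA1B in 2 and TUBB and TUBB3 in 1 each. Members lower in SFN numbered 4 with library size only, 4 with DESeq2, 6 with limma-voom and sample quality weights and 4 with the transcript length offset, and 2 to 3 when each library was left out. Over the 13378 genes tested, 2163 were lower with library size only, 4041 with quality weights and 2147 with the length offset, against 1862 in the main fit. DESeq2 called 2074 genes lower. Members higher in SFN numbered 1 with quality weights and 0 to 1 with libraries left out, the 1 being TUBA1B without DMSO replicate 1. The sign turned for TUBA1A with quality weights (0.12) and without DMSO replicate 1 (0.15), for TUBA1C under the same settings (0.14 and 0.13), and for TUBB without DMSO replicate 2 (0.0018) or 5 (0.013). With each library left out the log2 fold change ran from -0.54 to 0.15 for TUBA1A, from -0.35 to 0.13 for TUBA1C and from -0.13 to 0.013 for TUBB. Over all genes, higher calls numbered 1840 with DESeq2, 3874 with quality weights and 798 with glmTreat, and lower calls 4041 with quality weights. With libraries left out they ran from 906 to 3058 and from 1470 to 3193, the highest both without DMSO replicate 1. The higher share of calls was 39.5%, and 27.5% with library size only. Of 336 list counts under the alternatives, 247 were within 1.5 times, and the cause of these shifts was not tested.

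The replicate numbers gave no consistent pairing of the libraries, with correlations of same-numbered deviations of 0.0394, -0.267, -0.0605, 0.0308 and 0.484. The same number was the best match only for DMSO replicate 5 and for SFN replicate 1. The DMSO deviations were taken from a mean that includes DMSO replicate 1, so this check cannot decide whether the numbers pair. With the replicate block 0 members were higher and 2 lower, and 911 genes were higher and 1530 lower over all. Counts of 9 to 34 per library limit TUBB2B, and counts of 28 to 123 limit TUBB3.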
